A study of Homo sapiens with 6 samples.

Results

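The genes described are 10 chemokine genes of 62696 genes counted: CXCL1, CXCL2, CXCL3, CXCL8, CXCL10, CXCL16, CX3CL1, CCL2, CCL20 and CCL28. They were chosen by name from the contrast of OC2-OE with control cells in these same libraries, so the contrast is a description of them and no test of it is given. RNA was sequenced from 6 libraries of DMS53, an established cell line of small cell lung cancer (SCLC) with neuroendocrine (NE) features, to ask whether the homeodomain factor OC2 (gene ONECUT2) has a part in SCLC plasticity. The 3 control libraries come from cells transduced with the empty lentiviral vector pLenti-C-mGFP-P2A-Puro. The 3 OC2-OE libraries come from cells given a lentiviral ORF clone of mGFP-tagged ONECUT2 for constitutive expression. Both groups therefore carry a vector and went through puromycin selection, and the tag is part of the OC2 construct. The study calls the sequencing experiments of each condition independent, but neither it nor the labels say whether the libraries of a group came from separate transductions or whether a group is a pool or a clone, so any p-value below measures only the spread between these libraries. All values are from 1 cell line.

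Chemokines are small secreted proteins that steer leukocytes along concentration gradients by engaging G protein-coupled receptors on those cells. The family is named after the spacing of its first cysteines, as CXC, CC and CX3C. CXC ligands with a Glu-Leu-Arg (ELR) motif, such as CXCL8, bind CXCR1 and CXCR2 and call in neutrophils, whereas CXCL10 binds CXCR3 on activated T and NK cells. Many of these genes are immediate targets of NF-kB downstream of TNF, IL-1 and Toll-like receptors, and epithelial and tumour cells can transcribe them without any leukocyte being present. SCLC is an NE lung cancer that is usually poor in infiltrating leukocytes.

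Each library held between 16533284 and 19099337 read pairs counted on genes. ONECUT2, which checks the labels, had 465, 412 and 394 counts in the control libraries and 74031, 68853 and 72763 in OC2-OE, reads of the introduced ORF included. The NE markers of SCLC were present in all libraries (8 of 8 tested), and 7 of them were lower in OC2-OE while CHGA was higher, where 28.7% of all genes tested were called lower and 27.8% higher. Markers of blood, stromal and endothelial cells summed to between 28.2 and 31.5 CPM, that is counts scaled for library size, in the control libraries and between 38.1 and 42.2 in OC2-OE. Most of this sum was COL1A1, with means of 21.5 CPM in control and 27.8 CPM in OC2-OE. CD3E and NKG7 of T and NK cells had 0 counts in every library, and PTPRC (CD45) had 0 in each control and 1 in each OC2-OE library. Other markers were detected, with 185 counts in control and 321 in OC2-OE for CD14, 21 and 122 for LYZ and 125 and 134 for PECAM1. In bulk RNA, fewer cells expressing a transcript and less transcript per cell cannot be told apart.

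CXCL1, CXCL2, CXCL3 and CXCL8 lie in 1 cluster on chromosome 4, with CXCL10 farther along the same arm. CXCL8 spans 73740519 to 73743716 on the plus strand of GRCh38, CXCL1 73869393 to 73871308 on the plus strand, CXCL3 74036589 to 74038807 on the minus strand, CXCL2 74097040 to 74099196 on the minus strand and CXCL10 76021118 to 76023497 on the minus strand. CXCL16 (4733533 to 4739928, minus strand) and CCL2 (34255274 to 34257208, plus strand) are on chromosome 17. CX3CL1 is on chromosome 16 (57372477 to 57385044, plus strand), CCL20 on chromosome 2 (227805739 to 227817564, plus strand) and CCL28 on chromosome 5 (43376645 to 43412391, minus strand).

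The promoters of the genes whose transcripts differed most between the groups are shown first, a choice made on this contrast. All but CXCL8 hold a match to the strict consensus of the kappa B motif bound by NF-kB. CXCL1, CXCL2, CXCL3 and CCL20 also hold the core bound by ONECUT factors. The 2 promoters of CCL28, a gene with a small fold, are not printed and hold that core but no kappa B match. The matches thus describe genes picked on the contrast, and nothing about its cause is read from them. RefSeq's promoter table (GRCh38.p14) held 8 promoters of 7 of the chemokines, with 2 starts for CCL28 and no entry for CXCL16, CX3CL1 or CCL2. Each line is the 150 bases before the annotated start, 5′ to 3′ on the strand of the gene, with capitals for a match to the kappa B consensus, to ATCGAT or ATTGAT (the ONECUT core) or to TGANTCA (AP-1) on either strand. The RefSeq starts of CXCL2, CXCL3, CXCL8 and CCL20 lie inside the spans given above, since the files' annotation begins these genes farther upstream.
CXCL1 (chr4:73869243-73869392, plus strand): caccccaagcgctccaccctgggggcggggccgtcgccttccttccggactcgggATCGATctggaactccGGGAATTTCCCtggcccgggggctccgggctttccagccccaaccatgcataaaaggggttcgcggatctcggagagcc
CXCL2 (chr4:74099196-74099345, minus strand): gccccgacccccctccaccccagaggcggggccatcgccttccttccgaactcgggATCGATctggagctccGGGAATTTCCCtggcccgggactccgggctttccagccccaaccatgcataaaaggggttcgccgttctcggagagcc
CXCL3 (chr4:74038690-74038839, minus strand): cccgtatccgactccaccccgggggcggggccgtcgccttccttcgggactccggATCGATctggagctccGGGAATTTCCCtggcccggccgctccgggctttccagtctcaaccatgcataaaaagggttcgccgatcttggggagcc
CXCL8 (chr4:73740419-73740568, plus strand): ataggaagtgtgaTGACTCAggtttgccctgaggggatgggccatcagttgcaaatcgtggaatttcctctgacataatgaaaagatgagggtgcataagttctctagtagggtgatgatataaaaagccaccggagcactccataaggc
CXCL10 (chr4:76023498-76023647, minus strand): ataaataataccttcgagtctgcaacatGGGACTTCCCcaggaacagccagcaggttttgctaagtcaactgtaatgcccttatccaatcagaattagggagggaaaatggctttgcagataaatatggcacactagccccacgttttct
CCL20 (chr2:227813692-227813841, plus strand): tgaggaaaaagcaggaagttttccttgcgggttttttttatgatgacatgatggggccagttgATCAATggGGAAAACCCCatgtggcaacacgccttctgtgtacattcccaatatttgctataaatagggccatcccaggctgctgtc

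A kappa B match was found in 5 of the 8 promoters, those of CXCL1, CXCL2, CXCL3, CXCL10 and CCL20, against 5.91% of 35116 promoters of the same 300 bases in the table. In the CXCL1, CXCL2 and CXCL3 promoters, 2 matches on opposite strands overlap in an 11-base stretch, 79 to 69 bases before the start in CXCL1 and CXCL3 and 78 to 68 in CXCL2. CCL20 has its match at 79 to 70 bases. In CXCL10, kappa B matches lie 122 to 113 and 177 to 168 bases upstream, the second outside the printed stretch. CXCL8 had no match to the strict consensus, which says only that these letters are not in the window. Its printed line does hold ggaatttcc, letters that also lie inside the matches of CXCL1, CXCL2 and CXCL3. Neither consensus used here takes that stretch of CXCL8 in. A looser kappa B consensus was matched in 6 of the 8 promoters, CXCL8 included, but also in 32.6% of all promoters. Its match in CXCL8 lies 17 to 8 bases before the start.

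The ONECUT core was present in 6 of the 8 promoters, those of 5 of the 7 genes, against 6.96% of all promoters. It lies 95 to 90 bases before the start in CXCL1 and CXCL3, 94 to 89 in CXCL2 and 87 to 82 in CCL20, and farther out in both CCL28 promoters. Both a kappa B match and an ONECUT core were held by the promoters of CXCL1, CXCL2, CXCL3 and CCL20, and by 85 of all promoters (0.242%). This pairing was noticed after the matches had been seen. CXCL1, CXCL2 and CXCL3 are copies of each other, with promoters 70.1% to 81.4% identical over 250 bases, so their matches are not separate occurrences. The AP-1 sequence occurred in CXCL8 alone among the 8 promoters (7.71% of all), and GAAANNGAA, a core of the interferon-stimulated response element, in CXCL2, CXCL3 and CXCL10 (8.11% of all). A match describes the sequence and is not a measured binding site.

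Of the 10 chemokines, 9 passed edgeR's filter on low counts, CXCL3 and CCL20 through the OC2-OE libraries only, and CCL2 did not pass. In all 9, each OC2-OE library lay above each control library. That held for 36.5% of the 17307 genes tested, 27.8% were called higher in OC2-OE and 56.5% were called in either direction (adjusted p under 0.001 by the quasi-likelihood test of edgeR, Benjamini-Hochberg). Nothing is read from these shares for genes chosen on this contrast. The median log2 fold change of the 9 was 4.86, against 0.01 for all genes tested, and it includes genes that could pass the filter only by differing. Summed over the 10 genes, TMM-scaled levels were 83.1 ± 1.37 in control and 2294 ± 32.2 CPM in OC2-OE cells (SD, n = 3), a ratio of 27.6. The folds fell into separate ranges, from 1116 for CCL20, through 26.5 to 149.9 for the clustered CXC genes and CXCL10, to between 1.49 and 3.67 for CCL28, CXCL16 and CX3CL1.

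**Figure D1:**
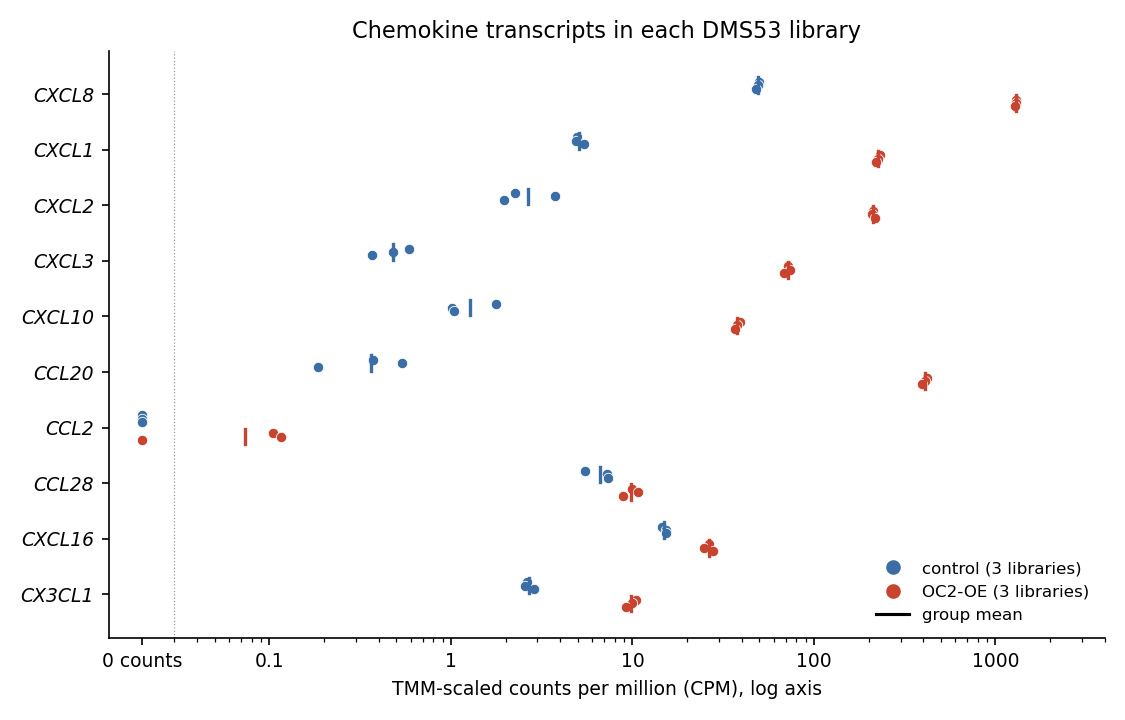
TMM-scaled CPM of the 10 chemokine transcripts in each of the 3 control and 3 OC2-OE libraries, on a log axis with libraries at 0 counts drawn left of the dotted line; vertical bars are group means. The groups are apart for every gene except CCL2, by more than a factor of 10 for CXCL8, CXCL1, CXCL2, CXCL3, CXCL10 and CCL20.

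Among the neutrophil-attracting ELR ligands, CXCL8 (interleukin-8, ENSG00000169429.12) was the most abundant in both groups. Control libraries held 927, 820 and 785 counts of it, against 25033, 22552 and 23261 in OC2-OE. The libraries of each group lay close together and the groups were far apart. The level was 48.9 ± 0.672 in control and 1293 ± 15.9 CPM in OC2-OE cells (SD, n = 3), with log2 fold change 4.72 (standard error, SE, 0.0276). CXCL8 had the smallest fold of the 4 ELR ligands of the set. It made up 58.8% of the summed CPM of the 10 genes in control cells and 56.4% in OC2-OE cells.

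CXCL1 (GRO-alpha, ENSG00000163739.5), a CXCR2 ligand, had 93, 82 and 88 counts in the control libraries and 4411, 3932 and 4004 in OC2-OE. This is 5.09 ± 0.275 against 225 ± 5.32 CPM (SD, n = 3), with log2 fold change 5.47 (SE 0.0556). CXCL2 (GRO-beta, ENSG00000081041.9) had 42, 63 and 32 counts in control and 4048, 3621 and 3978 in OC2-OE libraries. Control replicate 2 was the highest of its group, and the control spread of CXCL2 was wide beside that of CXCL1, at 36.4% of the mean against 5.40%. The levels of CXCL2 were 2.66 ± 0.965 and 212.5 ± 4.88 CPM (SD, n = 3), with log2 fold change 6.32 (SE 0.0676). CXCL3 (GRO-gamma, ENSG00000163734.4) was close to silent in control cells, with 11, 8 and 6 counts, and reached 1390, 1280 and 1253 counts in OC2-OE. Its log2 fold change was 7.19 (SE 0.116), and the ratio of 149.9 has a 95% counting interval from 100.3 to 229 (exact, counting error only), because the control value rests on 25 counts.

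CXCL1, CXCL2 and CXCL3 are near-identical copies, with coding sequences of 321 bases each that are 93.5% (CXCL1 and CXCL2), 90.7% (CXCL1 and CXCL3) and 94.4% (CXCL2 and CXCL3) identical in the transcripts of GENCODE release 29. CXCL8 shares 53.6% to 55.8% with them. Their transcripts share unbroken runs of up to 97 bases, where a read could be lost from the counts or placed on the wrong copy, so each separate value is uncertain. The sum over the 3 genes does not depend on how reads were divided between them, but it too lacks reads left out for mapping to several copies. The summed counts were 146, 153 and 126 in control and 9849, 8833 and 9235 in OC2-OE libraries, 8.22 ± 0.786 against 509 ± 3.55 CPM (SD, n = 3). The mix within the sum carries the same uncertainty as the separate values. CXCL1 took 63.7%, 53.6% and 69.8% of it in the control libraries and 43.4% to 44.8% in OC2-OE, and CXCL3 4.76% to 7.53% and 13.6% to 14.5%, shares that did not overlap. The CXCL2 share was 28.8%, 41.2% and 25.4% in control and 41.1%, 41.0% and 43.1% in OC2-OE, so the groups overlapped through control replicate 2.

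CXCL10 (IP-10, ENSG00000169245.6), the interferon-inducible ligand of CXCR3, had 33, 17 and 17 counts in the control libraries and 751, 653 and 672 in OC2-OE. Control replicate 1 held nearly as many counts as the other 2 control libraries together. The level was 1.27 ± 0.424 in control and 37.9 ± 1.17 CPM in OC2-OE cells (SD, n = 3), with log2 fold change 4.86 (SE 0.117). Without control replicate 1 it was 5.19.

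CCL20 (MIP-3alpha, ENSG00000115009.13), the sole chemokine ligand of CCR6 on Th17 cells, B cells and immature dendritic cells, showed the largest fold of the set. It had 7, 9 and 3 counts in the control libraries and 8016, 7118 and 7207 in OC2-OE. The gene was thus near the limit of detection in every control library and among the more abundant chemokines in every OC2-OE library. Its level was 0.365 ± 0.177 against 407.5 ± 11.6 CPM (SD, n = 3), and its log2 fold change of 10.09 (SE 0.0742) ranked 4 of the 17307 genes tested. With 19 control counts in all, the ratio of 1116 has a 95% counting interval from 711 to 1845. CCL20 accounted for 0.439% of the summed chemokine CPM in control cells and 17.8% in OC2-OE cells.

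The other CC ligands differed little or were hardly detected. CCL28 (MEC, ENSG00000151882.11), a mucosal epithelial ligand of CCR10 and CCR3, had 102, 121 and 119 counts in control and 192, 187 and 162 in OC2-OE libraries. The groups did not overlap, with 6.66 ± 1.05 against 9.89 ± 0.954 CPM (SD, n = 3) and with log2 fold change 0.58 (SE 0.116), the smallest of the 9. CCL2 (MCP-1, ENSG00000108691.10), which attracts monocytes through CCR2, had 0 counts in each control library and 2, 2 and 0 in OC2-OE. A count of 0 over the control group allows up to 3 counts, or 0.058 CPM, so no difference in CCL2 was detectable at this depth.

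CXCL16 and CX3CL1 are made as transmembrane proteins on a mucin-like stalk and can be shed by the metalloproteases ADAM10 and ADAM17. CXCL16 (ENSG00000161921.17), the ligand of CXCR6, had 272, 256 and 248 counts in control and 504, 432 and 504 in OC2-OE libraries. These are 15.01 ± 0.414 against 26.3 ± 1.36 CPM (SD, n = 3), with log2 fold change 0.81 (SE 0.0733). CX3CL1 (fractalkine, ENSG00000006210.7), the ligand of CX3CR1, had 49, 43 and 47 counts in control and 201, 173 and 168 in OC2-OE libraries. Its level was 2.69 ± 0.172 CPM in control and 9.88 ± 0.637 CPM in OC2-OE cells (SD, n = 3), with log2 fold change 1.88 (SE 0.139). Neither gene's groups overlapped, and both folds were far below those of the 4 ELR ligands of the set. CXCL16 made up 18.1% of the summed chemokine CPM in control cells and 1.15% in OC2-OE cells.

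Levels were divided by the summed length of each gene's annotated exons. This lets genes be compared only roughly, as an expressed transcript can be shorter, and CXCL1, CXCL2 and CXCL3 keep the uncertainty given above. The order of levels in control cells was CXCL8 (18.9 CPM per kb), CXCL16 (5.37), CXCL1 (3.74), CXCL2 (1.90), CCL28 (1.47), CXCL10 (1.08), CX3CL1 (0.451), CCL20 (0.229), CXCL3 (0.215) and CCL2 at 0. Libraries of CXCL2 and CCL28 overlapped, as did those of CCL28 and CXCL10 and those of CCL20 and CXCL3, so these neighbours are not apart. Overlap here covers the spread between libraries only, not the error in length. In OC2-OE cells the order of levels per kb was CXCL8 (499.5), CCL20 (256), CXCL1 (165), CXCL2 (152), CXCL3 (32.3), CXCL10 (32.2), CXCL16 (9.40), CCL28 (2.19), CX3CL1 (1.66) and CCL2 (0.0378), where of adjacent genes CXCL3 and CXCL10 alone overlapped. CCL20 stood in place 8 of 10 in control cells and in place 2 in OC2-OE cells.

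The genes whose profile over the 6 libraries was nearest to each chemokine, measured as the Euclidean distance of log2 CPM from the control mean, were none of them chemokines. These distances use a prior count of 2, which draws genes with few or no control counts together, so closeness in this measure does not mean an equal fold. IER3, an immediate early NF-kB target, was nearest to CXCL8 (distance 0.0793) with 22.4 CPM in control and 585 CPM in OC2-OE cells. PI3, which encodes the protease inhibitor elafin, was nearest to CXCL10 (0.546), and CFB, the complement factor B gene, nearest to CXCL3 (0.546) with 0 CPM in control and 15.97 CPM in OC2-OE cells, a match set by the prior count since CFB had no control counts to give a fold. The phosphate transporter gene SLC17A4 was nearest to CXCL1 (0.426), the antisense transcript SKAP1-AS2 to CXCL2 (0.771), the cytokine receptor gene IL11RA to CXCL16 (0.050), the kinase gene TNIK to CX3CL1 (0.103) and GTF2IRD2B to CCL28 (0.165). No gene came close to CCL20, whose nearest neighbour was TREML2 at a distance of 3.94.

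The other 36 chemokine ligand genes, which the choice of the set did not take in, were compared with the edgeR quasi-likelihood test over all genes. Of these, 19 had 0 counts in every library, 28 had under 10 counts in all, and 6 could be tested, of which 2 rose and 3 fell. The 5 that were called reached the filter's level in every library only of the group where they were higher, so a gene of this kind had to differ to be tested, and the count is a description. The called share was 83.3%, against 56.5% of all genes tested, and nothing is read from it. CXCL11, the CXCR3 ligand next to CXCL10, had 3, 2 and 2 counts in control and 212, 229 and 231 in OC2-OE libraries and rose by 6.43 on the log2 scale (adjusted p = 9.71e-49). CXCL5, an ELR ligand of the cluster, rose from 6, 4 and 5 counts to 77, 51 and 45 (log2 fold change 3.41, adjusted p = 5.25e-18). CXCL6, its closest copy (87.4% of the coding sequence), had 97, 63 and 67 counts in control and 72, 77 and 87 in OC2-OE, groups that overlapped (log2 fold change -0.02, adjusted p = 0.902). CXCL5 and CXCL6 share runs of up to 45 bases, so reads could be split between them. ELR ligands were thus not uniformly higher.

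CXCL14, a constitutive epithelial chemokine, fell from 188, 142 and 146 counts to 15, 9 and 4 (log2 fold change -4.15, adjusted p = 2.9e-37). PF4V1, a platelet-type CXC gene, fell from 55, 66 and 68 counts to 10, 6 and 10 (log2 fold change -2.93, adjusted p = 3.26e-18). CXCL13, the B cell attractant that binds CXCR5, fell from 31, 29 and 25 counts to 7, 4 and 4 (log2 fold change -2.55, adjusted p = 1.48e-09). CXCL17 had 8 counts in control and 4 in OC2-OE in all, and CCL22 3 and 7, too few to test. In their promoters, the kappa B consensus was matched in CXCL5, CXCL6 and CXCL11 and in none of PF4V1, CXCL14 and the 2 CXCL13 promoters, and among these 6 genes the ONECUT core was matched in CXCL11 alone. CXCL6, which did not pass, thus held the kappa B letters as well.

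**Figure D2:**
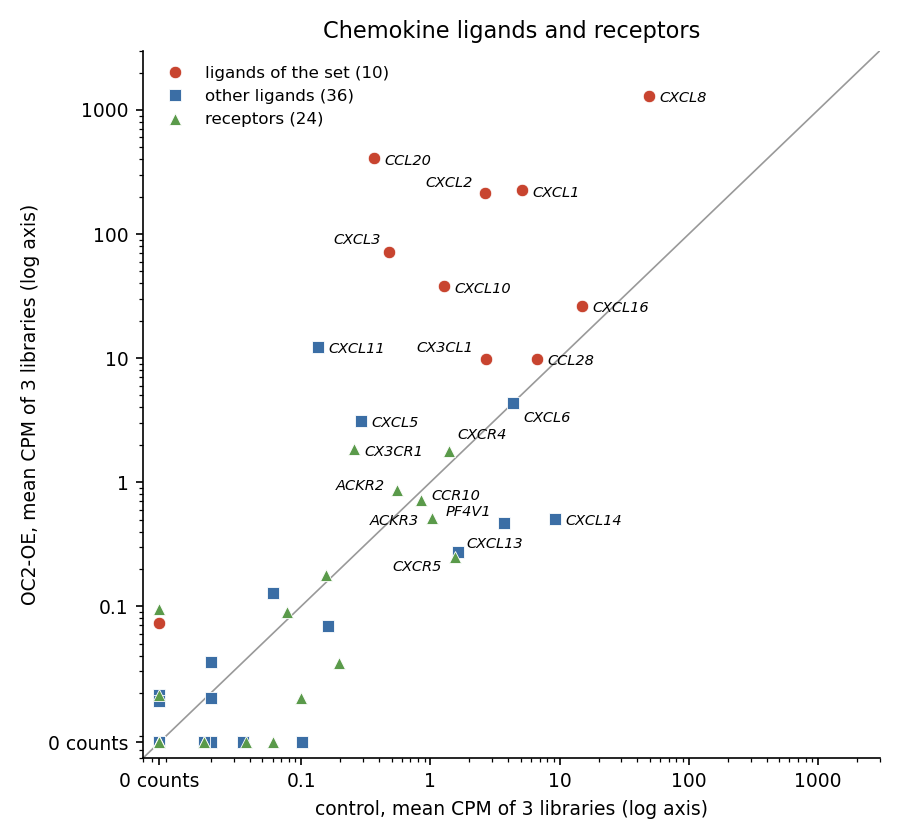
Mean CPM in OC2-OE against control cells (3 libraries each, log axes, 0 counts at the lower edge of each axis) for the 10 chemokines, the other 36 ligands and 24 receptors, the line marking equal levels. CCL20, CXCL11, CXCL3, CXCL2, CXCL1, CXCL10 and CXCL8 are far above the line, CXCL14, PF4V1 and CXCL13 are below it, and all receptors stay under 2 CPM.

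Few receptors for these ligands were detected in the same cells. CXCR2 (the receptor of the ELR ligands), CXCR6 (of CXCL16) and CCR2 (of CCL2) had 0 counts in all 6 libraries, which allows up to 3 counts over each group. CXCR1 had 0 counts in control and 1 in OC2-OE, CCR6 1 and 0, and CXCR3 4 and 5. Of 18 receptors 4 could be tested, of which 1 rose and 1 fell, a called share of 50% against 56.5% of all genes, and both of these passed the filter only through their higher group. CX3CR1, the receptor of CX3CL1, rose from 3, 3 and 7 counts to 35, 43 and 22 (log2 fold change 2.83, adjusted p = 1.45e-10). CXCR5 fell from 21, 41 and 17 counts to 8, 2 and 4 (log2 fold change -2.55, adjusted p = 3.26e-08). CCR10, the receptor of CCL28, had 44 counts in control and 39 in OC2-OE (adjusted p = 0.535), and CXCR4 72 and 97 (adjusted p = 0.218). Of 6 atypical receptors, which bind chemokines without signalling through G proteins, 2 could be tested and 0 passed by edgeR, DESeq2 or limma voom, too few to set beside the 56.5% of all genes. At an unadjusted p under 0.05, 1 was lower in OC2-OE by edgeR, ACKR3 (adjusted p = 0.0171), with 52 counts against 28.

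Of 6 proteases that shed or trim chemokines, 3 of the 4 tested rose and 0 fell, by edgeR, DESeq2 and limma voom alike and also at an unadjusted p under 0.05 (median log2 fold change 0.46). The called share of 75.0% compares with 56.5% of all genes tested, of which 27.8% were higher and 28.7% lower. DPP4, which trims the ends of CXCL10 and other ligands, went from 20.3 ± 1.75 to 36.5 ± 0.671 CPM (log2 fold change 0.84, adjusted p = 6.08e-24). ADAM17 rose by 0.69 and ADAM10 by 0.23 on the log2 scale. Among 13 genes for heparan sulfate, the glycan that holds chemokines at the cell surface, 12 could be tested, 6 rose, 5 fell and 1 did not pass (median 0.24), a called share of 91.7% against 56.5% of all genes. The proteoglycan gene GPC3 fell by 2.57 and the sulfotransferase gene HS6ST1 by 1.68 on the log2 scale, while the polymerase gene EXT1 rose by 1.32.

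Cytokines and receptors that induce these ligands were counted next. Of 23 listed genes 18 could be tested, of which 8 rose, 4 fell and 6 did not pass (median log2 fold change 0.32). The called share, 66.7%, lies near the 56.5% of all genes, and 4 of the 12 called genes (TNF, TLR3, TLR4 and IL17A) passed the filter only through their higher group. TNF, an inducer of most of the set, had 3, 7 and 3 counts in control and 191, 161 and 172 in OC2-OE libraries (log2 fold change 5.21, adjusted p = 1.25e-41). TNFRSF1A, its main receptor, fell from 32.1 ± 1.502 to 14.6 ± 0.478 CPM (log2 fold change -1.14, adjusted p = 9.69e-31). TLR3, a sensor of double-stranded RNA, rose by 2.71 on the log2 scale (adjusted p = 7.45e-16). TLR4 rose by 2.13 on the log2 scale from 43 counts. IL17A, whose product acts with TNF on CXCL1 and CCL20 in epithelia, had 15, 22 and 14 counts in control and 0 in each OC2-OE library, at least 18-fold lower against a floor of 3 counts over the group (adjusted p = 1.18e-11). IL1A had 0 counts in every library and IL1B 3 counts in control and 22 in OC2-OE, too few to test.

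Of 14 NF-kB subunits and regulators 9 rose, 5 did not pass and 0 fell, with a median log2 fold change of 0.59. The called share was 64.3%, against 56.5% of all genes in either direction and 27.8% higher. DESeq2 and limma voom also called 9 higher and 0 lower, and at an unadjusted p under 0.05 by edgeR 0 were lower. These methods use the same libraries, and this list, like the others, was chosen with earlier results of these data known. The genes farthest up encode feedback regulators that are themselves NF-kB targets. NFKBIZ, a nuclear cofactor at CXC promoters, had 131, 134 and 132 counts in control and 1839, 1582 and 1676 in OC2-OE (log2 fold change 3.60, adjusted p = 2.56e-84). NFKBIA, the inhibitor IkB-alpha, went from 21.6 ± 2.13 to 178 ± 3.27 CPM (log2 fold change 3.05, adjusted p = 1.02e-91). TNFAIP3, the ubiquitin editor A20, rose by 2.76 on the log2 scale (adjusted p = 1.62e-75). Of the subunit genes, NFKB2 rose by 1.76, RELB by 1.75 and REL by 1.24 on the log2 scale (adjusted p = 1.18e-85, 6.23e-58 and 9.37e-36). RELA and NFKB1, the subunits of the classical dimer, did not pass, with log2 fold changes of 0.11 (adjusted p = 0.00136) and 0.10 (adjusted p = 0.0287).

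Of 17 interferon inputs of CXCL10, 12 could be tested, of which 9 rose, 1 fell and 2 did not pass (median 0.62), a called share of 83.3% against 56.5% of all genes. RIGI alone of these passed the filter only through its higher group. RIGI, a sensor of viral RNA, rose from 5, 8 and 15 counts to 48, 53 and 69 (log2 fold change 2.50, adjusted p = 1.21e-13). STAT2 rose by 1.37 and IRF1 by 1.18 on the log2 scale (adjusted p = 1.41e-61 and 2.84e-44). IFNB1 itself was hardly detected, with 0, 1 and 0 counts in control and 1, 0 and 0 in OC2-OE libraries, and CXCL9, the third CXCR3 ligand, had 1 count in control and 0 in OC2-OE.

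Chemokine mRNAs carry AU-rich elements that bind factors of both kinds, those that speed decay and those that slow it. Of 8 genes for factors that bind, degrade or stabilise these mRNAs 2 rose, 4 fell and 2 did not pass (median -0.10), a called share of 75.0% against 56.5% of all genes. The endonuclease gene ZC3H12A (regnase-1) went from 7.44 ± 0.407 to 70.04 ± 2.63 CPM (log2 fold change 3.23, adjusted p = 7.45e-76), and ZFP36 (tristetraprolin) from 22.4 ± 1.83 to 72.5 ± 1.63 CPM (log2 fold change 1.69, adjusted p = 4.78e-57). Both encode factors that shorten the life of chemokine mRNA. The 4 that fell differ in role. TRAF3IP2, the adaptor of IL-17 receptors, fell by 0.54 on the log2 scale (adjusted p = 1.44e-07), and ELAVL1 (HuR), which stabilises AU-rich mRNAs, fell by 0.40. KHSRP, a decay factor, and HNRNPD, which binds the same elements, fell by 0.14 and 0.23. Of 10 AP-1 and C/EBP genes 6 rose, 2 fell and 2 did not pass (median 0.31), a called share of 80.0% against 56.5%, led by CEBPB (1.54), FOSB (1.501) and ATF3 (0.61).

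**Figure D3:**
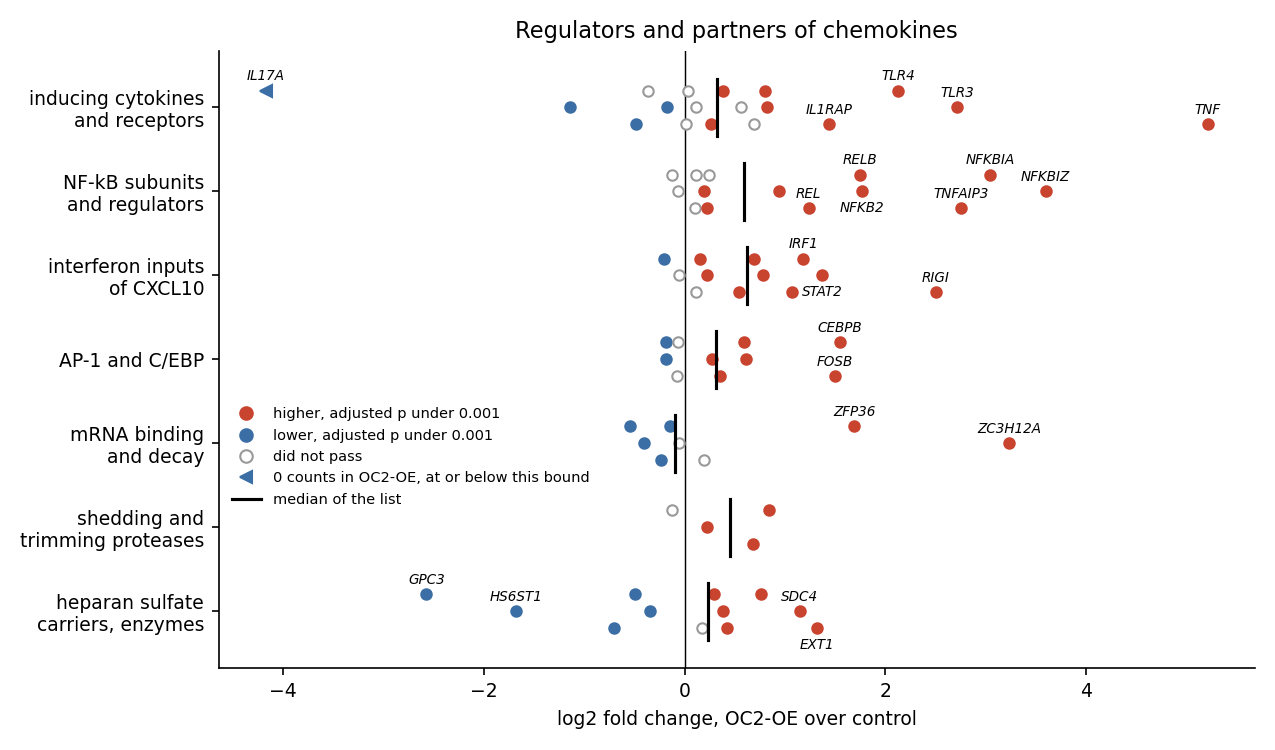
Log2 fold change of OC2-OE over control for the tested genes of 7 lists of chemokine regulators and partners, 1 point per gene, coloured by its call in edgeR's quasi-likelihood test, with a black bar at each list's median. TNF, NFKBIZ, ZC3H12A and NFKBIA lie farthest to the right, and IL17A, with 0 counts in OC2-OE cells, is drawn at its bound of -4.17.

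Blood and stromal markers were measured beside these lists. Of 15 markers 6 could be tested, of which LYZ (log2 fold change 2.44), CD14 (0.71) and COL1A1 (0.37) rose and CDH5 fell from 52 counts to 3. The called share was 66.7%, against 56.5% of all genes, and LYZ and CDH5 passed the filter only through their higher group. Whether they have a part in the chemokine values was not tested.

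The neighbours of the chemokine genes were called in both directions. Within 500 kb of the 10 genes lay 270 others, of which 91 could be tested, 19 rose, 32 fell and 40 did not pass. The called share was 56.0%, against 56.5% of all genes tested, of which 27.8% were higher and 28.7% lower, and nothing is read from it. The median log2 fold change of the neighbours was 0.01 (-0.08 within 200 kb and -0.04 within 1000 kb). In the chromosome 4 cluster, a gene that did not pass and a gene that fell lie between CXCL8 and CXCL1. From CXCL1 to CXCL2, every gene with enough counts to test was higher in OC2-OE. Going from CXCL8, CXCL6 begins 96.1 kb away and did not pass, PF4V1 begins at 112.8 kb and fell, CXCL1 at 128.9 kb is a gene of the set, PF4 and PPBP had 1 and 0 counts in all, CXCL5 at 255.1 kb rose, and CXCL3 (296.1 kb) and CXCL2 (356.5 kb) are again of the set. On the near side of CXCL8, RASSF6 fell from 85.2 ± 5.28 to 43.9 ± 1.33 CPM (log2 fold change -0.96, adjusted p = 2.4e-40). Beyond CXCL2, MTHFD2L did not pass (log2 fold change -0.20, adjusted p = 0.00906), and the EGF receptor ligand gene AREG, at 704.6 kb, rose from 21.1 ± 1.87 to 60.9 ± 1.66 CPM (log2 fold change 1.52, adjusted p = 2.8e-50). The PF4V1 gene lies 14910 bases from CXCL1 and moved the other way.

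Near CXCL10, CXCL16 and CCL20 genes were called in both directions. CXCL11, which rose, lies 10185 bases from CXCL10. NAAA, also near CXCL10, fell by 1.08 on the log2 scale, while the transcript ENSG00000287401 rose by 1.56. ZMYND15 overlaps CXCL16 on the opposite strand and rose from 25 counts to 156 (log2 fold change 2.54, adjusted p = 1.51e-13). The counting used the strand to separate reads of ZMYND15 and CXCL16, but how fully it did so was not tested. SMTNL2 and ALOX15, on the same stretch of chromosome 17, fell by 1.59 and 1.25. Near CX3CL1, where 3 genes rose and 9 fell of 20 tested (60.0% called, against 56.5% of all genes, of which 28.7% were lower), ENSG00000187185, DRC7 and PLLP fell by 3.67, 2.03 and 1.37 on the log2 scale. Near CCL20, SLC19A3 and AGFG1 fell by 1.501 and 0.40, and COL4A3 rose by 1.01. Near CCL28, the called genes, 5 of 14 tested (35.7%), all fell, with HMGCS1, C5orf34 and NNT down by 1.09, 0.72 and 0.62. Near CCL2, 25 genes lay within 500 kb and 0 had enough counts to test.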

How the data were processed

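RNA from 6 DMS53 libraries (3 control, 3 OC2-OE) was sequenced by the authors from stranded poly(A) libraries. The deposited values are raw counts of read pairs per gene, with exons summed, from featureCounts 1.6.0 on GENCODE release 42 (GRCh38) with the strand used and multi-mapping reads left out, which can lower counts of near-identical copies. FastQC 0.11.8 and STAR 2.7.9a are from the submitters' processing notes. Groups come from the labels.

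Counts were normalized with TMM (factors 0.980 to 1.018), filtered with filterByExpr and tested over 17307 genes with edgeR 4.0.16 (quasi-likelihood, robust, no replicate term) in R 4.3.3, with Benjamini-Hochberg adjustment and the study's threshold of 0.001. CPM are TMM-scaled, and log2 profiles used a prior count of 2. Steps were tested on simulated data. A total of 62672 of 62696 genes had a symbol. Libraries held 16533284 to 19099337 counts, which limits the precision of low genes. Counting intervals are exact at 95%, condition on summed counts and cover counting error only. Biopython 1.88 aligned coding sequences. Proteins were not used here. Alternatives were other normalizations, the Wald test of DESeq2 1.42.0, voom in limma 3.58.1, other filters, thresholds and windows, ONECUT2 left out, a block for the replicate number, libraries left out singly, and CXCL1, CXCL2 and CXCL3 summed.

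The members and lists were chosen with earlier results of these data known. Named are the 10 members, ONECUT2, up to 3 genes per list and per member's neighbourhood with the largest absolute log2 fold change under the threshold, other ligands with at least 10 counts in all, and each member's nearest profile. Receptors of the members, CXCR4, ACKR3, other cluster genes and markers, TLR4, TNFRSF1A, IL1A, IL1B, RELA, NFKB1, NFKB2, RELB, REL, ELAVL1, KHSRP, HNRNPD, IFNB1, CXCL9 and COL1A1 fall outside this rule and were picked for their role after values had been seen.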

Additional observations from a re-analysis of the deposited data

How the results depend on the processing

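No chemokine's log2 fold change turned direction under the alternatives run. The median of all genes, 0.01, was -0.06 with no filter on low counts. For the chemokine log2 fold changes, 136 alternative values moved by less than 1 SD between libraries and 6 by more, CXCL10 without control replicate 1 (5.19) among them. CXCL8 was 4.77 with library size only and with upper-quartile scaling, and CXCL1, CXCL2 and CXCL3 summed gave 5.95. With at least 10 counts in every library, CXCL3, CCL20, and all called ligands and receptors outside the set drop out by construction.

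With a minimum fold of 1 on the log2 scale added to the threshold, 1435 genes were higher and 1564 lower of all genes (4810 and 4966 without it), 25 and 13 on the other lists together (50 and 28) and 8 and 10 near the chemokines (19 and 32). At an adjusted p under 0.05, 32 neighbours were higher and 36 lower, a nearly even balance. Windows of 200 kb gave 11 higher and 18 lower, and of 1000 kb 33 and 54. Leaving out each library in turn gave 4425 to 4561 genes higher and 4514 to 4779 lower, 48 to 51 and 26 to 28 on the lists, and 19 to 21 and 29 to 30 near the chemokines. Without OC2-OE replicate 1, 1 AP-1 or C/EBP gene was lower rather than 2. Of the NE markers, 6 rather than 7 were lower with library size only, 6 to 7 with a library left out and 4 with the minimum fold added. Library size only gave 5337 genes higher and 4427 lower, which raised the share of higher calls from 49.2% to 54.7% and the median of all genes to 0.06.

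Replicate numbers appear in both groups, but same-numbered libraries deviated together with correlations of 0.0011, 0.0301 and 0.0252, so they were not treated as pairs. With the replicate block 4734 genes were higher and 4908 lower, and the lists and neighbours kept counts of 50, 28, 19 and 32. Depth limits CCL2, most receptors and the control values of CCL20 and CXCL3.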
